A study of Mus musculus with 8 samples.

Results

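The 9 genes described here are the 7 transcription factors known as the hematopoietic heptad, Runx1, Gata2, Tal1, Lyl1, Lmo2, Fli1 and Erg, together with Cbfb and Ldb1, cofactors through which some of them act. They were listed by name and are 9 of the 28014 genes in the count matrix. The matrix held CITE-seq RNA counts of CD31+ cells from the aorta-gonad-mesonephros (AGM) region of mouse embryos at E10.5, in 15168 cells and 8 libraries that each pooled several embryos. Of these, 5 libraries (WT 1 to WT 5, 8423 cells) were labelled C57BL/6 WT, and 3 (Mf/f;Cre 1 to 3, 6745 cells) were Meis1-flox/VE-Cre embryos. In the latter, loxP sites flank an exon of Meis1, and Cre is driven by the promoter of Cdh5, which encodes VE-cadherin, so that excision takes place in endothelium and is passed on to its progeny. The strain given for Mf/f;Cre is Meis1-flox/VE-Cre with no background strain, so strain and genotype cannot be told apart. In its deletion experiments the paper also uses WT for littermates without Cre. Whether any of WT 1 to WT 5 were of that kind is not stated. The types followed are arterial endothelial cells (aEC), pre-hemogenic endothelium (pre-HE) and cells in endothelial-to-hematopoietic transition (EHT), with blood cells beside them. The first question is in which order the genes are gained from aEC over pre-HE to EHT. The second is whether their levels differ in Mf/f;Cre. The paper holds that the mature blood cells, erythro-myeloid progenitors (EMP) included, likely come from the yolk sac, with perhaps a few from EHT. Comparisons of EHT with EMP, and of EMP with other blood types, are thus between types and are not taken as stages of a lineage.

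In EHT, flat endothelial cells of the dorsal aorta round up, lose endothelial adhesion and enter the circulation as blood progenitors. Heptad factors bind together at enhancers of blood genes, where LMO2 and LDB1 bridge DNA-bound GATA factors and bHLH factors such as TAL1 and LYL1, RUNX1 binds DNA with its partner CBFB, and FLI1 and ERG bind ETS sites. RUNX1 and GATA2 are needed for the first stem cells to form from hemogenic endothelium, and several of the others are already used by endothelium.

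Levels are given in CPM, the UMIs of a gene per 1000000 UMIs in the summed cells of 1 cell type of 1 library. Median UMIs per cell were 26572 to 28553 in WT 1 to 4, 12720.5 in WT 5 and 9611.5 to 14895 in the 3 Mf/f;Cre libraries, so depth moved with genotype except for WT 5, and its part in the differences between genotypes was not tested other than by the values given with them. Of 15135 distinct barcodes, 33 occurred in more than 1 library. Pre-HE had the fewest cells in all, with 11 to 87 cells per WT library and 15 to 33 per Mf/f;Cre library, and EHT had 31 to 118 and 40 to 71. The deposited cell types were drawn from the same RNA, with Runx1 among the genes used to recognise EHT. The authors also told pre-HE from hemogenic endothelium by its lack of Runx1 and Gfi1. Differences between types are thus given as measured levels of those types. That of Runx1 between pre-HE and EHT is a description with no test, and its place in the order follows in part from the types. The markers fitted the type names in part. Cdh5 averaged 350.0 CPM in aEC, 1075 in pre-HE, 134 in EHT and 7.26 in EMP of WT, and Ptprc, which encodes the blood marker CD45, had no UMI in any pre-HE library against a mean of 32.5 CPM in EHT. The arterial markers Gja5, Dll4, Efnb2 and Hey1 summed to 1011 to 1475 CPM in pre-HE of WT and to 137 to 208 CPM in aEC, while Gja5 alone averaged 500.5 CPM in pre-HE and 2.17 in aEC. The WT aEC sum of these genes lay above the highest WT sum in any vEC type, 79.4 CPM in vEC_1. The venous markers Nr2f2, Ephb4, Nrp2 and Aplnr summed to 273 to 400 CPM in aEC of WT, above the arterial sum there. In vEC_1 they summed to 394 to 570 CPM, which overlapped aEC, and in pre-HE to 25.9 to 232 CPM. The sums of vEC_2, vEC_3 and vEC_4 lay above those of aEC.

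The upstream sequence is shown for Gata2, Lyl1 and Tal1, which made the gains of over 1.5-fold into pre-HE, and for Runx1. That Runx1 was gained later follows in part from the types, since pre-HE was set apart by its lack of it. Each line holds the 250 bases before an annotated transcript start of RefSeq (GRCm38.p6), read in the direction of transcription, and capitals mark the matches to any of 4 motifs on either strand. The motifs were AGATAA for GATA factors, TGTGGT for RUNX factors, CGGAAG for ETS factors and CANNTG, the E-box of bHLH factors.
Runx1, distal start, chr16:92826075-92826324, minus strand: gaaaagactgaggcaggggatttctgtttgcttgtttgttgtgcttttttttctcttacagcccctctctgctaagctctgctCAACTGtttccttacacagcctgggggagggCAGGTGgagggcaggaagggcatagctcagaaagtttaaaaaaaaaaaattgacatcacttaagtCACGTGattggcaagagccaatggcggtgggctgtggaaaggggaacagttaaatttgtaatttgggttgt
Runx1, proximal start, chr16:92697330-92697579, minus strand: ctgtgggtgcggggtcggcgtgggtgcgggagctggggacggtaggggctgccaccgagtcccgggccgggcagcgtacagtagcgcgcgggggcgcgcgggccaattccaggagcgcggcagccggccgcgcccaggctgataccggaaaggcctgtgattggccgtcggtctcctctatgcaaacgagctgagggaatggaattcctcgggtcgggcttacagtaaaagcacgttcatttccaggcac
Gata2, chr6:88193641-88193890, plus strand: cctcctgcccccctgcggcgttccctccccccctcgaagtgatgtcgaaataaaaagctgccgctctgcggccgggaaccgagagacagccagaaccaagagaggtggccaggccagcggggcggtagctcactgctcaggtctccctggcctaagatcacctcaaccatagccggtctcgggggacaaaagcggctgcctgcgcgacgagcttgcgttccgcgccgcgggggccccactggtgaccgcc
Lyl1, chr8:84701207-84701456, plus strand: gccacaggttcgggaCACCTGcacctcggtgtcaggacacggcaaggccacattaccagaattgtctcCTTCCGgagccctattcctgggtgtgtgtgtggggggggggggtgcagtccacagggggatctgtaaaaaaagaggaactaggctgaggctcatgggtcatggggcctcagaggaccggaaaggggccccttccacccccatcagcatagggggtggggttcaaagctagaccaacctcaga
Tal1, chr4:115056176-115056425, plus strand: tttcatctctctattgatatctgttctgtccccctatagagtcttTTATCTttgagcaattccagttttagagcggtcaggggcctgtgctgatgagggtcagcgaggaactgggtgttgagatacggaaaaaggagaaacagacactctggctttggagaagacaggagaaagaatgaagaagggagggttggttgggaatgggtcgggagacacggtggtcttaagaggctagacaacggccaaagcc
Among 32851 such windows of the genome, 9.99% held AGATAA, 14.05% TGTGGT, 13.6% CGGAAG and 66.2% CANNTG. Windows were found for 7 of the 9 genes, 14 windows in all, of which 3 held AGATAA, 0 TGTGGT, 2 CGGAAG and 4 CANNTG. The distal window of Runx1 held E-boxes that begin 167, 136 and 71 bases before the start, and the proximal window held none of the 4 motifs. Nor did the Gata2 window shown or the other Gata2 window, at chr6:88198414-88198663. The Tal1 window shown held a GATA match 205 bases before the start, and the other Tal1 window, at chr4:115057561-115057810, held none of the 4 motifs. The Lyl1 window held an ETS match at 182 and an E-box at 235 bases. A match is a run of letters and not a measured binding site, and the counts were made from the 3′ ends of transcripts, so transcripts from different starts could not be told apart.

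Runx1, the factor whose loss stops the formation of blood cells from endothelium, was all but absent from endothelial types and from pre-HE and was present in every blood type. Its levels in aEC of WT 1 to 5 were 0.630, 1.76, 0.914, 0.888 and 1.35 CPM. In pre-HE they were 0, 28.0, 6.48, 0.791 and 0 CPM. In EHT they were 199, 197, 187, 161 and 210.1 CPM. Thus every EHT library lay far above every pre-HE library, while aEC and pre-HE overlapped. The order of the mean levels over the 10 types was EHT, EMP, megakaryocytes, Myeloid, pre-HE, vEC_4, aEC, vEC_2, vEC_3 and vEC_1, and of the 9 pairs of neighbours in that order only Myeloid and pre-HE did not overlap between WT libraries.

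The ratio of EHT to pre-HE was 7.04 in WT 2 (95% interval 3.24 to 19.2 from the counts), 28.9 in WT 3 (5.18 to 1141) and 204 in WT 4 (36.6 to 8047). In the libraries without a Runx1 UMI in pre-HE, with 3 counts taken as the limit that a count of 0 allows, it was at least 35.9-fold in WT 1 and at least 10.9-fold in WT 5. The same ratio was 43.2 (7.75 to 1707) in Mf/f;Cre 1, at least 14.4-fold in Mf/f;Cre 2 and at least 6.90-fold in Mf/f;Cre 3. These intervals cover counting error only.

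Only 3 of 171 pre-HE cells of WT held a Runx1 UMI, a share of 1.75% (exact binomial 95% interval 0.363% to 5.04%), and 1 of 77 in Mf/f;Cre did (1.30%, 0.0329% to 7.02%). In aEC of WT the share was 17 of 888 cells (1.91%, 1.12% to 3.05%), at a median of 18343 UMIs per cell against 12884 in pre-HE. With every cell thinned to 5000 UMIs, 2 of 171 pre-HE cells and 5 of 886 aEC cells of WT held one, and the means over libraries were 1.34% ± 2.41 and 0.7496% ± 0.747 (SD, n = 5). A difference between aEC and pre-HE was not detectable at these cell numbers. One WT 2 cell of 16894 UMIs carried 6 of the 8 Runx1 UMIs, and without it the sum over WT pre-HE fell from 3.43 to 0.864 CPM. The 4 pre-HE cells with a Runx1 UMI had 12 to 28 UMIs of Cdh5 and none of Gfi1, Spi1, Ptprc, Itga2b, Myb or Meis1. Of these 4, the Mf/f;Cre cell held 6354 UMIs. How often other pre-HE cells held a Meis1 UMI is not given, so these zeros do not show that the cells lacked Meis1. In EHT, 291 of 326 WT cells (89.3%) and 137 of 162 Mf/f;Cre cells (84.6%) held a Runx1 UMI.

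With every cell thinned to 5000 UMIs, the share of cells with a Runx1 UMI was 0, 5.56, 0, 1.15 and 0% in pre-HE of WT 1 to 5 and 59.4, 60, 74.2, 55.2 and 61.9% in EHT. The difference was 60.8 percentage points ± 8.19 (SD, n = 5), and EHT was higher in 5 of 5 libraries. Between aEC and pre-HE the difference was 0.591 points ± 2.59 (SD, n = 5, two-sided exact permutation test by sign flips, p = 0.75). The smallest p this design allows is 0.0625. Since pre-HE was set apart by its lack of Runx1, this test cannot decide whether Runx1 is gained there. In the blood types the WT mean share was 52.3% ± 3.76 in EMP, 47.0% ± 9.60 in megakaryocytes, where WT 3 had 5 cells, and 46.4% ± 4.45 in Myeloid (SD, n = 5).

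**Figure D1:**
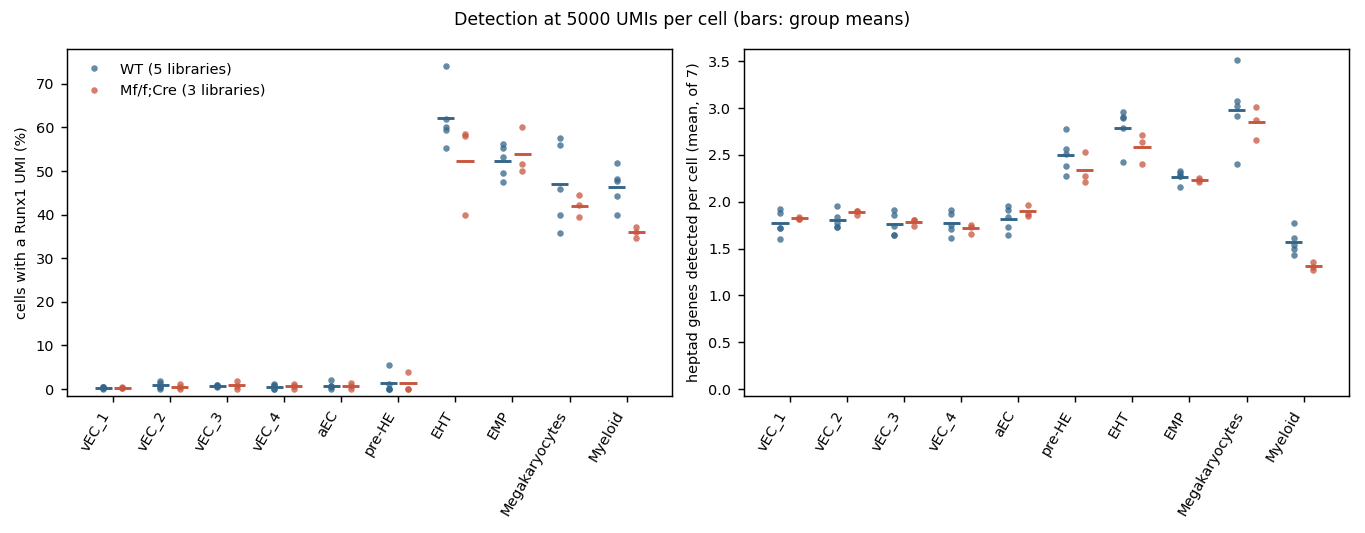
Detection with every cell thinned to 5000 UMIs. The left panel gives the percent of cells with a Runx1 UMI and the right panel the mean number of the 7 heptad genes detected per cell, for each cell type; each point is 1 library, blue for WT and red for Mf/f;Cre, and bars are group means. Runx1 detection stays near 0 through pre-HE and is 55.2% or more in EHT of every WT library, whereas the number of heptad genes per cell already rises from 1.82 in aEC to 2.50 in pre-HE in WT.

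Counted over the 7 heptad genes at the same 5000 UMIs, detection per cell was already higher in pre-HE than in aEC. That Runx1 did not share in this follows in part from how pre-HE was recognised. In WT a mean of 1.82 ± 0.127 of the 7 genes was detected per cell in aEC, 2.50 ± 0.192 in pre-HE and 2.79 ± 0.218 in EHT (SD, n = 5). The share of cells with at least 4 of them was 5.76% in aEC, 19.1% in pre-HE and 26.4% in EHT. Without Runx1 the means were 1.81, 2.49 and 2.17, so EHT stood above pre-HE only when Runx1 was counted. The highest mean was 2.98 ± 0.399 in megakaryocytes and the lowest 1.57 ± 0.132 in Myeloid.

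From aEC to pre-HE in WT, 8 of the 9 genes were tested, with Runx1 left out for low counts, of which 5 rose and 1 fell at an adjusted p under 0.1 in the quasi-likelihood test of edgeR, adjusted after Benjamini and Hochberg. Over all 8143 genes tested, 42.1% were called (21.1% higher and 21.1% lower). The median log2 fold change of the 8 was 0.49, beside 0.01 over all genes. Gata2, Lyl1 and Tal1 made the gains of over 1.5-fold, Fli1 and Ldb1 rose less, and Lmo2 fell.

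Gata2, the GATA factor of early progenitors, stood at 14.2, 9.98, 12.8, 13.8 and 9.88 CPM in aEC of WT 1 to 5 and at 84.8, 107, 90.8, 49.0 and 38.6 CPM in pre-HE. Every pre-HE library was above every aEC library. The rise was 5.07-fold (log2 2.34, SE 0.21, adjusted p = 3.2e-12). In EHT it stood at 56.4, 43.2, 43.5, 41.1 and 46.2 CPM, within the range of pre-HE, and the step from pre-HE was a fall of 0.57 on the log2 scale (SE 0.19, adjusted p = 0.011). The fall was not called when sums of fewer than 20 cells were left out (log2 -0.37, adjusted p = 0.175). In EMP it reached its highest mean, 92.8 ± 12.8 CPM (SD, n = 5), with 79.7 to 112 CPM against 41.1 to 56.4 in EHT, a rise of 1.12 (SE 0.10, adjusted p = 3.6e-07).

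Lyl1, a bHLH factor related to TAL1, stood at 23.0, 24.7, 17.4, 19.4 and 22.9 CPM in aEC and at 114, 126, 64.8, 96.5 and 103 CPM in pre-HE of WT 1 to 5. The groups did not overlap, and the rise was 4.55-fold (log2 2.18, SE 0.16, adjusted p = 4.1e-15). In EHT it was 128, 119.6, 93.6, 103 and 108 CPM, which overlapped pre-HE, and the step was 0.15 (SE 0.14, adjusted p = 0.374). Part of the contrast with aEC lay in aEC itself, since Lyl1 was lower in aEC than in the summed vEC types, where it was 48.9 to 61.3 CPM (log2 change -1.32, SE 0.08, adjusted p = 7.4e-13).

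Tal1, the bHLH factor needed for the specification of blood, stood at 21.7, 25.2, 28.3, 20.7 and 23.4 CPM in aEC and at 53.4, 46.7, 25.9, 38.0 and 70.8 CPM in pre-HE. It was higher in pre-HE in 4 of 5 libraries, and WT 3, with 4 Tal1 UMIs in pre-HE, was the library in which it was not. The rise was 1.89-fold (log2 0.92, SE 0.20, adjusted p = 3.9e-04). In EHT it was 60.7, 74.5, 41.0, 58.3 and 59.7 CPM, a further 0.41 (SE 0.19, adjusted p = 0.0595), with overlapping ranges. That second step was not called without WT 2 (adjusted p = 0.158) or without WT 4 (0.281), nor with the cells thinned to 5000 UMIs (log2 0.20, adjusted p = 0.594).

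Lmo2, the LIM-only protein that joins the bHLH and GATA factors, went the other way. Its levels were 706, 676, 623, 608 and 572 CPM in aEC and 352, 392, 259, 365 and 322 CPM in pre-HE of WT 1 to 5, a fall in 5 of 5 libraries to 0.504 of the aEC level (log2 -0.99, SE 0.10, adjusted p = 1.8e-11). The ranges were far apart. In EHT it was 369, 329, 376, 294 and 283 CPM, which overlapped pre-HE (log2 -0.03, SE 0.11, adjusted p = 0.848). Within endothelium it was higher in aEC than in the summed vEC types, at 357 to 401 CPM (log2 0.78, SE 0.04, adjusted p = 1.4e-13), and it fell from vEC_1 at a mean of 563 CPM over vEC_2 at 439.8 to vEC_3 at 217 and vEC_4 at 178 CPM. The ranges of vEC_1 and vEC_2 did not overlap, nor did those of vEC_2 and vEC_3.

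Ldb1, the adaptor that dimerises to bring enhancers and promoters together, stood at 27.0 to 40.3 CPM in aEC and at 62.7, 74.7, 19.4, 54.6 and 38.6 CPM in pre-HE. It was higher in pre-HE in 4 of 5 libraries (log2 0.49, SE 0.18, adjusted p = 0.034), and WT 3, with 3 Ldb1 UMIs there, was lower. The call was lost without WT 1 (adjusted p = 0.192), without WT 2 (0.136) and with thinned cells (log2 0.22, adjusted p = 0.625). In EHT it was 36.3 to 53.6 CPM (log2 -0.19, SE 0.21, adjusted p = 0.443). Cbfb, the partner that stabilises RUNX1 on DNA, was present at 37.0 to 61.1 CPM in aEC, 32.4 to 51.9 in pre-HE and 37.9 to 60.8 in EHT. Neither step of Cbfb passed the test (log2 -0.23, SE 0.18, adjusted p = 0.331, then 0.20, SE 0.19, adjusted p = 0.390). Its mRNA was thus measured in endothelium at levels that overlapped those of EHT, while that of Runx1 was not.

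Fli1 and Erg are ETS factors shared by endothelium and blood. Fli1 stood at 132, 108, 82.3, 95.3 and 139 CPM in aEC, at 155, 117, 149, 153 and 303 CPM in pre-HE and at 106, 99.6, 72.7, 94.6 and 105 CPM in EHT of WT 1 to 5. It was higher in pre-HE than in aEC in 5 of 5 libraries (log2 0.49, SE 0.13, adjusted p = 0.0028) with overlapping ranges. It then fell in 5 of 5 into EHT (log2 -0.75, SE 0.14, adjusted p = 3.9e-05), with ranges that did not overlap. Erg was 33.7 to 53.9 CPM in aEC, 25.7 to 65.4 in pre-HE and 34.0 to 53.2 in EHT. Its first step did not pass the test (log2 0.19, SE 0.18, adjusted p = 0.441), and the second was a fall of 0.45 on the log2 scale (SE 0.21, adjusted p = 0.0648) with overlapping ranges. The second call on Erg was lost without WT 1 (adjusted p = 0.171), WT 2 (0.131) or WT 4 (log2 -0.29, adjusted p = 0.369).

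**Figure D2:**
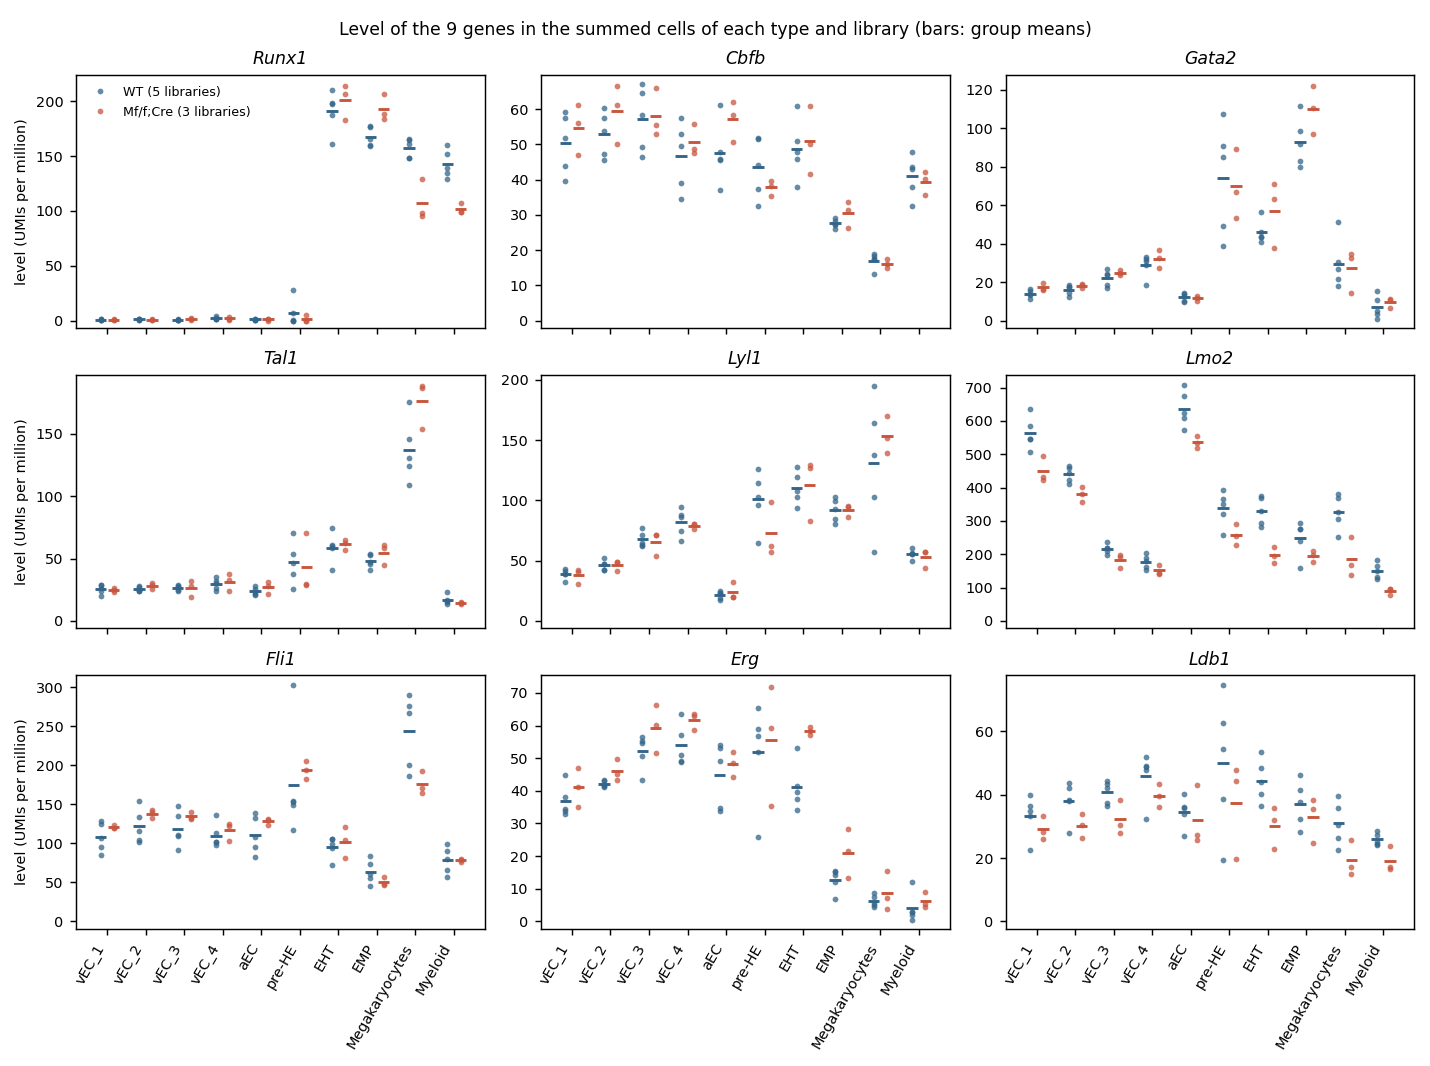
Level of each of the 9 genes by cell type, in CPM. Each point is 1 library, blue for WT and red for Mf/f;Cre, bars are group means, and the y axes differ between panels. Runx1 is near 0 up to pre-HE and 161 CPM or more in EHT of WT, Gata2 and Lyl1 are already raised in pre-HE, Lmo2 is highest in aEC, and Tal1 and Fli1 are highest on average in megakaryocytes.

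From pre-HE to EHT, Runx1 had enough counts for the fit through EHT alone and is left aside as a gene by which EHT was recognised. Of the other 8 genes, 1 rose (Tal1) and 3 fell (Gata2, Fli1 and Erg), where 61.6% of 8467 genes were called (31.6% higher and 30% lower). Read by library, Fli1 was the only one of these 8 whose EHT levels did not overlap its pre-HE levels, and the share of all genes without such overlap is not given.

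From EHT to EMP, erythro-myeloid progenitors, 1 of the 9 genes rose (Gata2) and 4 fell, where 56.4% of 9252 genes were called (27.6% higher and 28.8% lower). Erg went from 39.5, 41.3, 37.6, 34.0 and 53.2 CPM to 12.2, 6.99, 15.01, 14.2 and 15.6 CPM in WT 1 to 5. The ranges were apart, and the level in EHT was 3.01-fold that in EMP (log2 -1.59, SE 0.17, adjusted p = 1.5e-06). Cbfb went from 37.9 to 60.8 CPM down to 26.1 to 29.1 CPM, also without overlap (log2 -0.69, SE 0.11, adjusted p = 1.1e-04). Fli1 fell to 46.0 to 84.2 CPM (log2 -0.50, SE 0.08, adjusted p = 1.2e-04) and Lmo2 to 160.3 to 293 CPM (log2 -0.30, SE 0.11, adjusted p = 0.034), both with some overlap with EHT. Runx1 stood at 161, 159.6, 176, 178 and 165 CPM in EMP, which did not pass the test against EHT (log2 -0.08, SE 0.07, adjusted p = 0.407), nor did Tal1, Lyl1 and Ldb1 (-0.20 to -0.15). Leaving out 1 library changed some of these, since Runx1 passed without WT 4 (log2 -0.17, adjusted p = 0.0723), Tal1 without WT 3 (-0.25, 0.0701), Lyl1 without WT 3 (-0.24, 0.0417) or WT 4 (-0.25, 0.0575), and Ldb1 without WT 2 (-0.29, 0.0671). With thinned cells the fall of Cbfb was not called (log2 -0.55, adjusted p = 0.123).

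Between EMP and megakaryocytes, 3 genes rose and 3 fell, where 58.9% of 9370 genes were called (29.5% in each direction). The megakaryocytes of WT 3, with 5 cells, were left out of this fit. Fli1 was 73.7, 60.8, 55.3 and 84.2 CPM in EMP of WT 1, 2, 4 and 5 and 267, 277, 187 and 289.9 CPM in their megakaryocytes, a 3.96-fold rise without overlap (log2 1.98, SE 0.11, adjusted p = 1.6e-06). Tal1 rose 3.04-fold to 176, 146, 124 and 130.2 CPM, also without overlap (log2 1.604, SE 0.13, adjusted p = 1.4e-05), and Lyl1 rose to 195, 138, 164 and 103 CPM (log2 0.79, SE 0.16, adjusted p = 0.0023). In contrast, Gata2 fell to 51.2, 18.1, 21.5 and 26.6 CPM (log2 -1.67, SE 0.27, adjusted p = 7.2e-04), Erg to 4.36 to 7.49 CPM (log2 -0.99, SE 0.26, adjusted p = 0.0099) and Cbfb to 13.1 to 18.8 CPM (log2 -0.60, SE 0.16, adjusted p = 0.0108). The 2 ETS factors thus parted between these types, and Runx1 with 148 to 166 CPM in the same 4 libraries did not pass the test (log2 0.03, SE 0.11, adjusted p = 0.820), nor did Lmo2 (0.28) and Ldb1 (-0.23). Without WT 2, Lmo2 passed (log2 0.44, adjusted p = 0.0352), as it did when the 5 cells of WT 3 were kept (0.47, 0.0265). With thinned cells the fall of Gata2 was not called (log2 -0.29, adjusted p = 0.460) and the value of Runx1 was 0.41 (adjusted p = 0.0862).

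Between EMP and Myeloid cells all 9 genes were called, 2 higher and 7 lower, where 61.1% of 10267 genes were called (32.1% higher and 29% lower), and the median over the 9 was -0.67 beside 0.02 over all genes. Gata2 was 10.6, 4.82, 0.558, 3.40 and 15.3 CPM in Myeloid of WT 1 to 5, and EMP stood 13.01-fold higher (log2 -3.70, SE 0.31, adjusted p = 2.9e-06). Tal1 was 13.3 to 23.1 CPM (log2 -1.53, SE 0.10, adjusted p = 3.3e-07), Erg 0.558 to 12.002 CPM (log2 -1.69, SE 0.32, adjusted p = 0.0011) and Lyl1 50.1 to 60.7 CPM (log2 -0.67, SE 0.06, adjusted p = 6.0e-06). For Gata2, Tal1, Erg and Lyl1 all Myeloid libraries but WT 5 for Erg lay below all EMP libraries. Lmo2 fell to 132, 125, 151, 164 and 183 CPM (log2 -0.71, SE 0.13, adjusted p = 7.7e-04), Ldb1 to 24.2 to 28.5 CPM (log2 -0.51, SE 0.09, adjusted p = 7.3e-04) and Runx1 to 159.9, 129, 152, 139 and 135 CPM (log2 -0.20, SE 0.06, adjusted p = 0.0155), each with a slight overlap, and the fall of Ldb1 was not called with thinned cells (log2 -0.15, adjusted p = 0.656). Cbfb rose to 32.4 to 47.9 CPM, above every EMP library (log2 0.63, SE 0.09, adjusted p = 2.1e-04), and Fli1 was 57.5 to 99.7 CPM, with overlap (log2 0.35, SE 0.07, adjusted p = 0.0021).

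Within endothelium, from the summed vEC types to aEC, 1 of the 8 genes tested rose and 3 fell, where 59.7% of 11345 genes were called (29.2% higher and 30.5% lower). Besides Lmo2 and Lyl1, described above, Gata2 fell from 14.7 to 21.6 CPM to 9.88 to 14.2 CPM without overlap (log2 -0.51, SE 0.13, adjusted p = 0.0020) and Cbfb by 0.15 on the log2 scale with overlap (SE 0.07, adjusted p = 0.0923). Cbfb was not called without WT 1 (log2 -0.09, adjusted p = 0.405), WT 2 (0.309) or WT 4 (0.232). Tal1, Fli1, Erg and Ldb1 did not pass the test (log2 -0.15 to 0.04), although Tal1 did without WT 3 (-0.19, adjusted p = 0.0941).

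**Figure D3:**
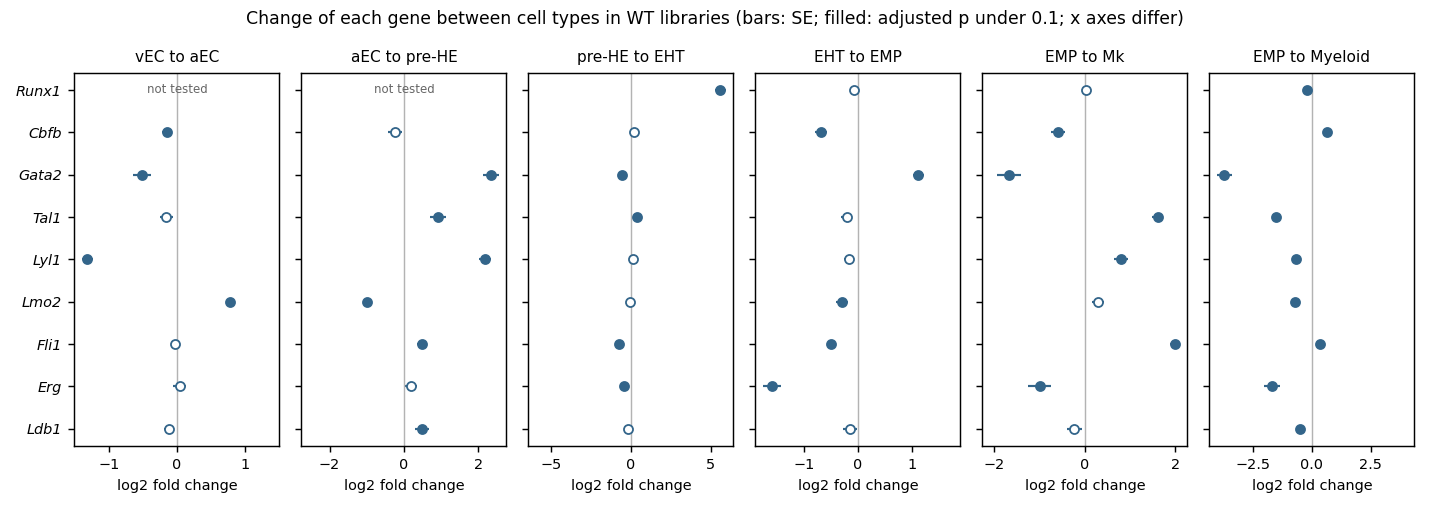
Change of each gene between cell types in the WT libraries. Points are log2 fold changes on axes that differ between panels, bars are standard errors, and filled points have an adjusted p under 0.1; the filled point of Runx1 from pre-HE to EHT is a description, since Runx1 helped to define EHT. Gata2, Lyl1 and Tal1 lie to the right in the step to pre-HE, and Fli1 and Erg lie on opposite sides between EMP and megakaryocytes (Mk).

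The order over the 10 types differed from gene to gene, and few neighbours in it were apart. For Gata2 the order of the WT means was EMP, pre-HE, EHT, megakaryocytes, vEC_4, vEC_3, vEC_2, vEC_1, aEC and Myeloid, while Fli1 was highest in megakaryocytes and Ldb1 in pre-HE. For these 3 genes each pair of neighbours overlapped between WT libraries. For Lmo2 the order was aEC, vEC_1, vEC_2, pre-HE, EHT, megakaryocytes, EMP, vEC_3, vEC_4 and Myeloid, with gaps only on either side of vEC_2. For Tal1 megakaryocytes stood apart from EHT, the next, and for Erg vEC_1 stood apart above EMP, followed by megakaryocytes and Myeloid. For Lyl1 the gaps were between vEC_3 and Myeloid and between vEC_1 and aEC, the lowest type. For Cbfb only the gaps above EMP and above megakaryocytes, the lowest type, were free of overlap.

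Across the 10 cell types, the genes whose mean log2 level in WT was most like that of each member were named among 9759 genes. For Runx1 they were Ptk2b (Pearson r = 0.993), P2ry14 (0.992) and Was (0.989), for Erg Mtfr1 (0.991), Mex3a (0.987) and Gm26735 (0.983), and for Tal1 Fbxo9 (0.971), Ippk (0.951) and Gbx2 (0.9502). For Fli1 they were Nlk (0.966), Adarb1 (0.963) and Erbb2ip (0.962), for Lyl1 Dnmt3a (0.965), Arhgap6 (0.935) and Hibadh (0.930), and for Cbfb Dcakd (0.961), Dock11 (0.961) and Disc1 (0.952). For Lmo2 they were Tdrp (0.958), Ppp2cb (0.931) and Aqp11 (0.916), for Ldb1 Strbp (0.953), B230354K17Rik (0.943) and Ube2g1 (0.939), and for Gata2 Eif2d (0.930), Upf3b (0.930) and Arhgef2 (0.910). These are descriptions over 10 points that share libraries and depth, and no test was made of them.

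The partner list held 25 relatives and cofactors of the members, of which 17 were tested from aEC to pre-HE, with 11 higher, 4 lower and a median of 0.48. Over all genes 42.1% were called in this step. Gata6 (log2 4.68) and Gata3 (3.02), GATA factors that are also used outside blood, the corepressor Cbfa2t3 (2.60) and the LDB1 relative Ldb2 (1.66) rose, and the ETS factors Ets1 (-1.45) and Ets2 (-1.24), the bHLH partner Tcf4 (-0.99) and Lmo4 (-0.56) fell. From pre-HE to EHT, 6 of 19 rose and 9 fell, where 61.6% of all genes were called (31.6% higher and 30% lower). Here Gata6 (-4.85), Gata3 (-2.73), Ets1 (-2.16) and Elk3 (-1.24) fell, while Elf1 (1.11), Etv6 (0.89) and Zfpm1 (0.87), the GATA cofactor FOG-1, rose. Lmo1, a LIM-only relative of Lmo2 and counted among the 6, had no UMI in pre-HE of WT and 24.98 to 41.3 CPM in EHT. It had enough counts for the fit through EHT alone, so its rise is a description. Gata6 and Gata3 were thus higher in pre-HE than in both aEC and EHT.

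From EHT to EMP 5 of 20 partners rose, among them Gata1 (4.66), Lmo4 (2.32), Runx3 (2.26) and Zfpm1 (0.85), and 10 fell, among them Ldb2 (-5.12), Gata3 (-2.63), Lmo1 (-2.26) and Ets1 (-2.16). From EMP to megakaryocytes 9 of 18 rose, among them Ets1 (2.69), Etv2 (2.00), Gata1 (1.44) and Tcf4 (0.90), and 4 fell, Runx3 (-3.05), Lmo4 (-2.44), Tcf3 (-0.52) and Cbfa2t3 (-0.44). From EMP to Myeloid 4 of 19 rose, Ets1 (1.43), Tcf4 (1.27), Elk3 (1.16) and Ets2 (0.88), and 10 fell, with the erythroid and megakaryocytic factors Gata1 (-4.60) and Zfpm1 (-3.43) in front, then Lmo4 (-1.44) and Cbfa2t3 (-1.03). Between vEC and aEC 7 of 20 rose and 10 fell. Over all genes 56.4%, 58.9%, 61.1% and 59.7% were called in these steps, in the order given.

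The target list held 12 blood genes known to be bound by heptad factors, of which only 4 had enough counts to be tested from aEC to pre-HE. There Hhex (0.77) and Cd34 (0.33) rose, and Kit (-1.35), the stem cell factor receptor, and Itga2b (-0.98), which encodes CD41, fell. In this step 42.1% of all genes were called. From pre-HE to EHT 11 were tested, 7 more than in the step before, which had entered through their counts in EHT. The 9 higher and 1 lower are thus given as a description, beside 61.6% of all genes called. The repressor Gfi1b had no UMI in pre-HE of WT and 11.3 to 30.4 CPM in EHT, the fitted values of Myb, Spi1, which encodes PU.1, and Nfe2 were 6.82, 6.67 and 5.11, and Cd34 (-1.25) fell. Spi1, with Gfi1, was among the genes by which EHT was recognised, and the low number tested in the first step leaves the other 8 targets without a value there.

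From EHT to EMP 6 of 12 targets rose, among them Itga2b (1.33), the macrophage receptor Csf1r (0.99), Gfi1b (0.78) and Nfe2 (0.68), and 4 fell, Gfi1 (-4.95), Cd34 (-1.58), Kit (-0.94) and Hhex (-0.71). From EMP to megakaryocytes 4 of 11 rose, among them Itga2b (3.83), Gfi1b (1.89) and Nfe2 (0.98), and 5 fell, among them Myb (-3.98), Ikzf1 (-3.57), Kit (-2.88) and Spi1 (-2.50). From EMP to Myeloid 4 of 11 rose, Csf1r (4.47), Spi1 (0.94), Hhex (0.58) and Ikzf1 (0.24), and 6 fell, among them Gfi1b (-3.69), Itga2b (-2.83) and Myb (-2.70). Over all genes 56.4%, 58.9% and 61.1% were called in these steps, in the order given.

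EHT cells of WT were also split by whether they held a UMI of Cdh5, with 190 cells without and 135 with one, all thinned to 5000 UMIs. Of the 9 genes 4 had enough counts to be tested, and 0 were called, where 4.71% of 2376 genes were called (3.54% higher and 1.18% lower with Cdh5). Of the 4, 0 had an unadjusted p under 0.05 in edgeR, and DESeq2 called 0. Runx1 was 175, 133, 233, 145 and 250 CPM in the cells without a Cdh5 UMI of WT 1 to 5 and 225, 244, 308, 159 and 204 CPM in those with one, which overlapped (log2 0.17, SE 0.18, adjusted p = 0.790). Lmo2 was 375, 400.0, 444, 352 and 281 CPM in the cells without and 375, 278, 215, 282 and 248 CPM in those with one, lower with Cdh5 in 4 libraries and equal in WT 1 (log2 -0.29, SE 0.15, adjusted p = 0.376). Lyl1 (-0.17) and Fli1 (-0.27) had adjusted p of 0.850 and 0.718.

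The second question was whether the 9 genes differed between Mf/f;Cre and WT within a cell type. In EHT, 1 of the 9, Lmo2, was called, and in Myeloid 2 were, Lmo2 and Runx1, all of them lower in Mf/f;Cre. Over all genes 0.127% of 8670 were called in EHT (0.0577% higher and 0.0692% lower) and 3.26% of 11479 in Myeloid (1.48% higher and 1.78% lower). In vEC, aEC, pre-HE, EMP and megakaryocytes 0 of 9, 8, 7, 9 and 8 tested members were called, where 0.0164% of 12205, 0% of 9540, 0.489% of 3682, 4.74% of 9172 (2.68% higher and 2.06% lower) and 0.206% of 7770 genes (0.142% higher and 0.0644% lower) were. Of these members 1 in vEC, 0 in aEC, 0 in pre-HE, 3 in EMP and 4 in megakaryocytes had an unadjusted p under 0.05 in the same edgeR test, namely Lmo2 in vEC, Runx1, Erg and Gata2 in EMP, and Runx1, Lmo2, Fli1 and Ldb1 in megakaryocytes. DESeq2 called 0 in each of these types. The megakaryocytes of WT 3 were left out of the fits of that type, other than the alternative with sums of at least 5 cells.

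Lmo2 was lower in Mf/f;Cre in the mean of all 10 types. Its levels in EHT of WT 1 to 5 were 369, 329, 376, 294 and 283 CPM, and those of Mf/f;Cre 1 to 3 were 173, 223 and 196 CPM. All Mf/f;Cre libraries lay below all WT libraries, with WT at 1.64-fold the Mf/f;Cre level (log2 -0.71, SE 0.13, adjusted p = 0.0550, edgeR quasi-likelihood test). In Myeloid it stood at 132, 125, 151, 164 and 183 against 79.1, 95.5 and 97.1 CPM, again without overlap (log2 -0.68, SE 0.15, adjusted p = 0.0517).

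The same absence of overlap was seen for Lmo2 in vEC_1, vEC_2, vEC_3, aEC and megakaryocytes, 7 of the 10 types in all, and in all 10 types each Mf/f;Cre library lay below WT 5, the WT library of like depth. The 10 types come from the same 8 libraries, so counts of types, here and for other genes below, are not separate results. The share of all genes with such counts is not given. In aEC it was 572 to 706 CPM in WT and 519.6, 533 and 556 CPM in Mf/f;Cre (log2 -0.22, SE 0.12, adjusted p = 0.525). In the summed vEC types it was 357 to 401 against 302, 328 and 329 CPM (log2 -0.21, SE 0.09, adjusted p = 0.280). In pre-HE the values 352, 392, 259, 365 and 322 CPM in WT and 228, 254 and 292 CPM in Mf/f;Cre overlapped (log2 -0.38, SE 0.19). In megakaryocytes it was 251.2 to 380.3, the highest from the 5 cells of WT 3, against 167, 250.6 and 138 CPM (log2 -0.74, SE 0.22, adjusted p = 0.329), and with no filter on low counts it passed (adjusted p = 0.0410). In EMP it was 160.3 to 293 against 211, 197 and 178 CPM, which overlapped through WT 3, and without WT 3 it passed (log2 -0.40, adjusted p = 0.0942).

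The calls on Lmo2 sat near the threshold. In EHT the adjusted p was 0.152 with every cell thinned to 5000 UMIs, 0.121 without called doublets, 0.107 to 0.125 without WT 1, WT 2 or WT 3, 0.123 to 0.590 without any 1 of the Mf/f;Cre libraries and 1.00 with depth per cell as a covariate or with WT 5 as the only WT library, while the log2 change stayed between -0.82 and -0.55. Against WT 5 alone the spread comes from the 3 Mf/f;Cre libraries, and the lone WT library is assumed to vary like them. In Myeloid the call held with thinned cells (adjusted p = 0.0305), the value against WT 5 alone was -0.94 (adjusted p = 0.0219), and the call was lost without WT 4 (0.113), without any 1 of the Mf/f;Cre libraries (0.126 to 0.271) and with depth as a covariate (0.219), with a log2 change of -0.94 to -0.51.

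The values of Runx1 lay on either side of WT. In EHT its level was 199, 197, 187, 161 and 210.1 CPM in WT and 214, 206 and 183 CPM in Mf/f;Cre, which overlapped (log2 0.11, SE 0.12, adjusted p = 0.807). In EMP it was 159.6 to 178 against 184, 189 and 207 CPM, with all Mf/f;Cre libraries above all WT libraries (log2 0.26, SE 0.09, adjusted p = 0.184). In megakaryocytes it was 148 to 166 against 95.02, 129 and 98.5 CPM, all below (log2 -0.55, SE 0.16, adjusted p = 0.317). In Myeloid, 129 to 159.9 CPM in WT stood above 99.1, 107 and 99.5 CPM, the called difference (log2 -0.43, adjusted p = 0.0538), which was lost thinned (adjusted p = 0.147), without WT 1, without WT 4, without any 1 of the Mf/f;Cre libraries, with depth as a covariate and against WT 5 alone, at log2 changes of -0.46 to -0.33. In the summed vEC types the level was 0.718 to 1.67 CPM in WT and 0.575 to 1.27 in Mf/f;Cre (log2 -0.19, SE 0.38, adjusted p = 0.826).

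The share of EHT cells with a Runx1 UMI at 5000 UMIs was 59.4, 60, 74.2, 55.2 and 61.9% in WT and 58.6, 58.0 and 40% in Mf/f;Cre. The groups overlapped, and the difference was -9.94 percentage points (two-sided exact permutation test of 5 against 3 libraries, p = 0.179, smallest possible p 0.0179). It was -3.85 points without Mf/f;Cre 3 and 1.73 points when 2 UMIs were required, so neither its size nor its direction was stable.

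Ldb1, whose protein binds LMO2, also had a lower mean in Mf/f;Cre in all 10 types, but all 3 Mf/f;Cre libraries lay below WT 5 in only 2 of them. EHT had 43.9, 36.3, 48.5, 53.6 and 40.2 CPM in WT and 35.8, 22.9 and 31.9 CPM in Mf/f;Cre (log2 -0.47, SE 0.20, adjusted p = 0.465). In Myeloid it was 24.2 to 28.5 against 16.7, 17.3 and 23.7 CPM (log2 -0.37, SE 0.14, adjusted p = 0.254), and in megakaryocytes 22.5 to 39.7 against 14.96, 25.6 and 17.2 CPM (log2 -0.69, SE 0.29, adjusted p = 0.510). The groups did not overlap in EHT and Myeloid, and did in megakaryocytes.

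Erg had a higher mean in Mf/f;Cre in all 10 types. EHT libraries had 39.5, 41.3, 37.6, 34.0 and 53.2 CPM in WT and 57.1, 58.4 and 59.7 CPM in Mf/f;Cre, without overlap (log2 0.54, SE 0.18, adjusted p = 0.349), and without WT 5 it passed (0.67, adjusted p = 0.0380), while against WT 5 alone it was 0.11. In EMP it was 6.99 to 15.6 against 21.4, 13.4 and 28.4 CPM, with overlap (log2 0.80, SE 0.29, adjusted p = 0.179). In Myeloid it was 0.558 to 12.002 against 4.34, 5.23 and 8.94 CPM, and without WT 5, the highest, it passed (log2 1.46, adjusted p = 0.0208). Fli1 stood in megakaryocytes of Mf/f;Cre at 165, 193 and 171 CPM against 187 to 289.9 CPM in WT (log2 -0.51, SE 0.18, adjusted p = 0.395), and Gata2 was 96.9 to 122 CPM in EMP of Mf/f;Cre against 79.7 to 112 CPM (log2 0.29, SE 0.12, adjusted p = 0.249). With all libraries, none of these values of Erg, Fli1 and Gata2 passed the threshold after adjustment. In the summed vEC types Fli1 (log2 0.30, adjusted p = 0.0647) and Ldb1 (-0.31, 0.0878) passed without WT 5, whereas WT 5 itself had 143 CPM of Fli1 there against 132, 126 and 132 CPM in Mf/f;Cre, and for Fli1 all 3 Mf/f;Cre libraries lay below WT 5 in 9 of the 10 types. With thinned cells Gata2 passed in EMP (0.70, 0.0487).

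The remaining members differed by -0.22 to 0.31 in aEC (adjusted p 0.518 to 0.946, Lmo2 included), by -0.53 to 0.25 in pre-HE (0.714 to 0.992), by 0.06 to 0.39 in EHT (0.545 to 0.941), by -0.30 to 0.24 in EMP (0.359 to 0.837), by -0.06 to 0.32 in megakaryocytes (0.658 to 0.984), by -0.14 to 0.66 in Myeloid (0.643 to 0.982) and by -0.23 to 0.24 in vEC (0.308 to 0.947), all in log2. In aEC and pre-HE, the types before EHT, the depth and cell numbers gave standard errors of 0.12 to 0.22 and of 0.19 to 0.41 on that scale.

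Markers of other cell types moved with genotype in the same sums. In megakaryocytes the 5 megakaryocyte markers summed to 20479 to 39567 CPM in WT and 12040.2 to 21984 in Mf/f;Cre, and the 5 erythroid markers to 21.9 to 6662 CPM in WT and 8200.2 to 36609 in Mf/f;Cre, with all of the markers detected. The 5 myeloid markers summed to 261 to 391 CPM in EHT of WT and 429 to 484 in Mf/f;Cre, to 1068 to 1478 and 1846 to 2095 CPM in EMP, and to 1996 to 3167 and 3115 to 3863 CPM in Myeloid. In pre-HE their sum was 0 to 9.34 CPM in WT and 14.8 to 33.5 in Mf/f;Cre. Its mean was also higher in Mf/f;Cre in aEC (24.4 against 8.35 CPM) and in vEC_1 to vEC_4 (20.9 to 24.5 against 6.87 to 9.65 CPM). In megakaryocytes the mean was lower in Mf/f;Cre (706 against 821 CPM). The part of all these markers in the differences of the 9 genes was not tested. In sums of this kind fewer cells of a state and less RNA per cell cannot be told apart. Meis1 itself stood at 68.0 to 85.8 CPM in EHT of WT and at 55.5 to 70.9 CPM in EHT of Mf/f;Cre, with an overlap of 1 library. Counts were made from the 3′ ends of transcripts and loxP sites flank only an exon, so this level does not measure excision. The paper assessed excision on genomic DNA of sorted CD31+ endothelial cells and loss of the protein by immunostaining.

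**Figure D4:**
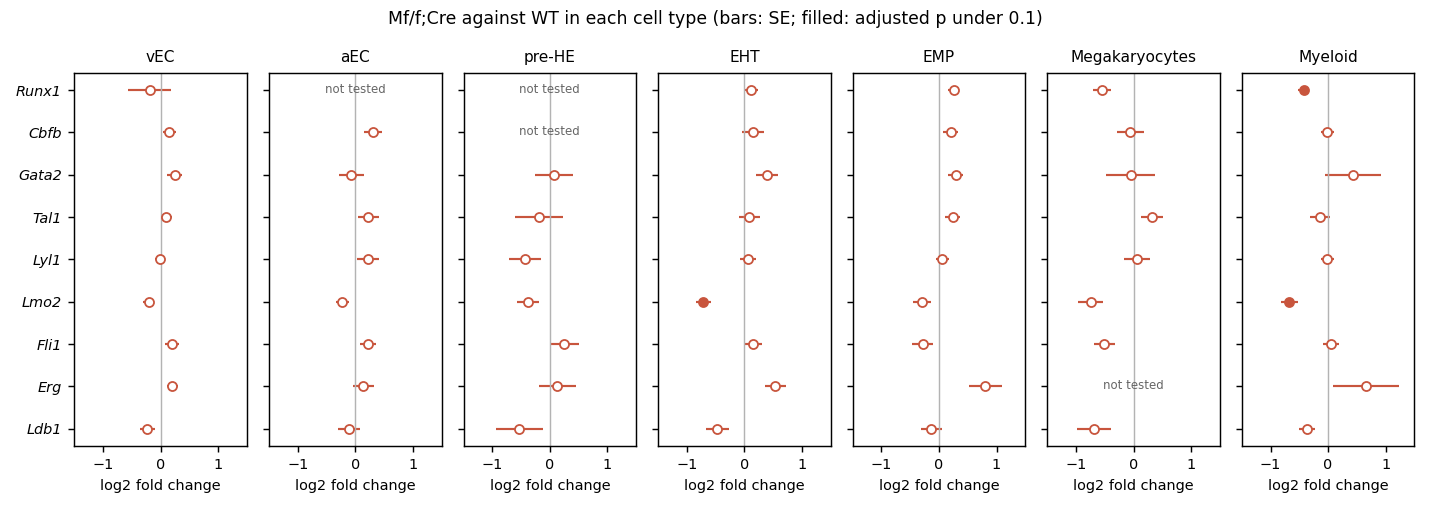
Difference between Mf/f;Cre and WT for each gene within 7 cell types. Points are log2 fold changes, bars are standard errors, and filled points have an adjusted p under 0.1. The filled points are Lmo2 in EHT and in Myeloid and Runx1 in Myeloid, and Lmo2 lies to the left of 0 in all 7 panels.

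The steps themselves were compared between genotypes by an interaction term. From aEC to pre-HE 0 of 8 members were called, where 0.0527% of 9489 genes were, and from pre-HE to EHT 0 of 9, where 0.0374% of 8025 genes were. DESeq2 called 0 in both. The step of Lyl1 into pre-HE differed between Mf/f;Cre and WT by -0.72 on the log2 scale (SE 0.33, adjusted p = 0.960), and it was the 1 member with an unadjusted p under 0.05 in these edgeR tests. It was -1.20 without Mf/f;Cre 1 and -0.23 without Mf/f;Cre 2. The others differed by -0.47 to 0.16 in the first step and by -0.32 to 0.52 in the second, aside from Runx1, for which the difference of 1.04 had an SE of 1.57. Fitted in the Mf/f;Cre libraries alone, Gata2 (2.52), Lyl1 (1.49) and Fli1 (0.54) rose into pre-HE and Lmo2 (-1.14) fell, all past the threshold, and Tal1 (0.50) and Ldb1 (0.20) were not called.

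Of the partner list, 1 gene in EMP (Ssbp3, 0.41) and 3 in Myeloid (Runx3, -1.70, Ssbp2, -0.52 and Lmo1, 1.30) were called between genotypes, and of the target list only Nfe2, a megakaryocytic and erythroid factor, higher in EMP (0.51) and in Myeloid (1.01) of Mf/f;Cre. In vEC, aEC, pre-HE, EHT and megakaryocytes 0 genes of either list were called. Over all genes 4.74% were called in EMP, 3.26% in Myeloid and 0.489% or fewer in each of the other types.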

How the data were processed

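Cells of 5 WT and 3 Mf/f;Cre libraries had been measured by CITE-seq with 10x Genomics 3′ chemistry. The authors deposited whole-number counts of UMIs for 28014 genes and 6 antibody tags in 15168 cells, with a cell type for each cell. Reads were processed with Cell Ranger 3.0.2 and mm10 according to the submitters' processing notes, and the authors kept cells with over 2000 genes and under 10% mitochondrial reads, integrated both genotypes on variable genes and named clusters by their leading genes. Cell names of WT 5 begin with letters that resemble those of the other genotype, and the library labels were followed. The 9 members were chosen by name, and the members and the lists of partners, targets and markers were chosen with earlier results of these data known.

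Total UMIs per library were 20484881 to 79429129 in WT and 28043832 to 36349635 in Mf/f;Cre. Counts were summed per library and cell type, with sums of at least 10 cells entering the fits, while levels and shares are given for all sums. vEC is the sum of vEC_1 to vEC_4. The sums were tested with edgeR 4.0.16 (R 4.3.3), with TMM normalization, filterByExpr, the quasi-likelihood test and Benjamini-Hochberg adjustment over all genes tested, and called at an adjusted p under 0.1, the authors' threshold. The authors used the Bonferroni adjustment, which was run as an alternative. Steps between cell types were fitted over WT with a library block, genotypes with 5 against 3 libraries, and interactions with a library block. Libraries are pools of embryos, and the p-values between genotypes measure the spread between pools. Those of steps and interactions, with the library block, measure the spread of the differences within pools. In all of them edgeR shares information on variance across genes. Cells of 1 library are not replicates. For shares and detection, each cell was thinned to 5000 UMIs with shallower cells left out (0 of 171 pre-HE cells in WT, 13 of 77 in Mf/f;Cre, and 1 of 326 and 2 of 162 EHT cells). Shares were compared with exact permutation tests. Scrublet in scanpy 1.11.5 marked 83 cells (0.547%) as doublets, 15 of them EHT and 0 pre-HE, and they were kept except in an alternative.

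All 9 members are named for the steps. For genotypes and interactions Runx1 and members with an unadjusted p under 0.05 are named, and others by range, aside from values named where 1 library decided a call, which were chosen after they were seen. For the partner and target lists up to 4 called genes per direction are named, aside from 1 gene that is not reported here, and likeness is the Pearson r of mean log2 CPM with 0.5 added, among genes of at least 10 CPM in a type. Alternatives were RLE normalization, no filter, DESeq2 1.42.0, other cell minimums, thinned cells, no doublets, thresholds, 1 fit over all types, leaving out each library, a depth covariate and a replicate block. The edgeR step was tested on simulated data before use.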

Additional observations from a re-analysis of the deposited data

Results flagged for a closer look

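Among the 90 sets of 5 WT libraries that the 9 genes and 10 cell types give, 7 held a library far from the other 4 by Dixon's criterion, which chance meets in about 1 of 20 groups. In vEC_4, Runx1 was 4.49 CPM in WT 5, the next value being 2.01, Ldb1 was 32.3 CPM in WT 5, the next being 47.9, and Gata2 was 18.7 CPM in WT 4, the next being 28.8. In pre-HE, Runx1 was 28.0 CPM in WT 2, where the next value was 6.48, and 6 UMIs of 1 cell made it up. Fli1 in pre-HE was 303 CPM in WT 5, where the next was 155. Erg in Myeloid was 12.002 CPM in WT 5 and 2.98 in the next, and Cbfb in megakaryocytes was 13.1 CPM in WT 1 and 17.4 in the next, in a set that includes the 5 cells of WT 3. WT 5, which holds 4 of the 7, has median UMIs per cell of 12720.5 against 26572 or more in the other WT libraries, and the part of depth in these values was not tested.

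A feature named CreERT2 in the count matrix, which enters none of the comparisons, had 12 UMIs in Mf/f;Cre 1, 3 in Mf/f;Cre 2 and 19 in Mf/f;Cre 3 and 0 in all 5 WT libraries. Of these, 11, 2 and 16 lay in endothelial types and pre-HE.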

How the results depend on the processing

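Of 318 alternatives to the 19 counts and shares reported, 272 left the value on its side or within 1.5 times, as did 1097 of 1244 alternatives for single genes in direction and call, with 88 losing a call, 24 gaining one and 35 changing sign. With the Bonferroni adjustment the members called became 3 in the step from aEC to pre-HE, 2 in that to EHT, 2 from EHT to EMP, 2 from EMP to megakaryocytes, 3 from EMP to Myeloid and 2 from vEC to aEC. From pre-HE to EHT the 5 calls, with Runx1 counted, became 3 with DESeq2, with sums of at least 20 cells, with thinned cells, with 1 fit over all cell types and at an adjusted p under 0.05. Between genotypes the count in EHT (1) became 0 with thinned cells, without doublets, with the median UMIs as a covariate, with WT 5 as the only WT library, at 0.05 and with Bonferroni. In Myeloid (2) it became 1 with thinned cells or with WT 5 only and 0 with the covariate, at 0.05 and with Bonferroni. It became 1 in EMP (0) with thinned cells and 1 in megakaryocytes (0) without the filter. The causes were not tested, other than the stricter thresholds.

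Leaving out 1 library at a time gave 5 to 6 members called from aEC to pre-HE, 3 to 5 for the step into EHT (3 without WT 2 or WT 4), 5 to 7 from EHT to EMP, 6 to 7 from EMP to megakaryocytes, 9 from EMP to Myeloid, 3 to 5 from vEC to aEC, and 0 to 2 in EHT, 0 to 1 in EMP, 0 to 3 in Myeloid and 0 to 2 in vEC between genotypes. The difference in the share of cells with a Runx1 UMI lay between -0.486 (without WT 2) and 1.24 points for pre-HE against aEC, 57.4 and 62.5 for EHT against pre-HE, and -13.1 and -3.85 between genotypes in EHT, where it was 1.73 with at least 2 UMIs.

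The labels do not state that same-numbered libraries were paired. The correlations of deviations for pairs 1, 2 and 3 were -0.0632, 0.0952 and 0.0932 in EHT and -0.194, 0.258 and 0.148 in Myeloid. In vEC they were -0.0377, 0.403 and 0.377. In all 3 types WT 1 correlated best with Mf/f;Cre 2, whereas WT 2 did so with Mf/f;Cre 2 and WT 3 with Mf/f;Cre 3. Whether the numbers stand for a shared batch cannot be told from these values. With the replicate block over libraries 1 to 3 of each genotype, the members called were 2 in EHT, 1 in EMP and 2 in vEC, and over the same libraries without the block, chosen after seeing the data, 2 in EHT. Runx1 in vEC was then 0.28 with the block and 0.31 without it.

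The log2 changes that turned sign were of values not called, except where stated. From pre-HE to EHT, Lmo2 was 0.0015 with RLE, 0.083 without the filter, 0.016 with DESeq2 and -0.12 to 0.075 on leaving out 1 library, and Ldb1 was 0.15 with thinned cells. In the Mf/f;Cre libraries, Lmo2 (called in WT), Runx1 and Ldb1 from EHT to EMP were 0.13, 0.065 and 0.24, Lmo2 and Runx1 from EMP to megakaryocytes -0.046 and -0.79, and Tal1, Cbfb (called in WT), Fli1 and Ldb1 from vEC to aEC 0.016, 0.064, 0.025 and 0.057. Runx1 from EMP to megakaryocytes was -0.036 without the filter and -0.043 to 0.14 on leaving out 1 library. From vEC to aEC, Fli1 was 0.045 with thinned cells, 0.010 with 1 fit and -0.045 to 0.017 on leaving out 1 library, and Erg was -0.082 without WT 4 and up to 0.15 without another. In the split of EHT cells, Fli1 was 0.021 when split by Pecam1 and -0.47 to 0.12 on leaving out 1 library, and in Mf/f;Cre, chosen after seeing the data, Lyl1, Fli1 and Runx1 were 0.35, 0.29 and -0.58. Between genotypes, Runx1 in EHT was -0.11 with thinned cells, -0.086 with the covariate and -0.079 against WT 5, and in vEC -0.38 to 0.11 on leaving out 1 library. Its interaction from pre-HE to EHT was -3.31 with WT 5 as the only WT library and -0.69 to 4.92 on leaving out 1 library.

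With the cells and UMIs measured in pre-HE, a count of 0 for Runx1 allows up to 5.53 CPM in WT 1, 19.3 in WT 5 and 14.4 and 26.5 in Mf/f;Cre 2 and 3.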
